A study of Mus musculus with 6 samples.

Results

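The 10 genes described here encode the machinery by which cells sense oxygen, together with targets through which it feeds back: the hypoxia-inducible factor (HIF) subunits Hif1a, Epas1 and Arnt, the hydroxylases Egln1, Egln2, Egln3 and Hif1an, the ubiquitin ligase subunit Vhl, and the hypoxia-induced genes Higd1a and Ero1a. They were taken by name from the probe sets that the array's annotation assigns to a single gene, using the probe set with the highest mean over the 6 arrays where a gene had more than 1. All 10 were found among 19937 genes tested, and no filter on low values was applied. Gene expression had been measured with Affymetrix arrays in mouse haematopoietic stem and progenitor cells carrying HoxA9 and Meis1, homeobox genes whose joint expression makes such cells leukaemic, grown with serum, stem cell factor and the interleukins IL3 and IL6. One group of 3 arrays was from cells kept for 5 days with the solvent DMSO, the other group of 3 from cells kept for 5 days with UNC0638, an inhibitor of the histone H3 lysine 9 methyltransferases G9a and GLP. HoxA9 and Meis1 are therefore present in both groups. The labels do not give the concentration of UNC0638, the number of clones, or whether the 3 samples of a group came from separate cultures, so the spread behind each p-value is that among these samples and may be technical.

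In normal oxygen, the prolyl hydroxylases encoded by Egln1, Egln2 and Egln3 modify the HIF alpha subunits, the Vhl protein binds the modified form, and the alpha subunit is degraded. Hif1an encodes a further oxygen-dependent enzyme, an asparagine hydroxylase that prevents the alpha subunit from recruiting co-activators. When oxygen is short the alpha subunit accumulates, pairs with the Arnt protein and turns on genes of glycolysis, mitochondrial adjustment and oxidative protein folding, among them Egln1 and Egln3 themselves, which closes a negative feedback loop. Because the alpha subunits are regulated mainly as proteins, their transcripts do not report their activity.

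Of the 10 genes, 3 were lower with UNC0638 at a limma adjusted p under 0.05 and 0 were higher: Egln1, Ero1a and Higd1a, the last on 1 of its 2 probe sets only. The count of 3 became 0 with any 1 of the 6 arrays left out, with a pseudocount of 1, at a threshold of 0.01 and with the replicate block. Among all genes tested 0.672% were called, 0.301% lower and 0.371% higher. At an unadjusted p under 0.05, 4 members were lower, Egln3 being the addition, and 0 were higher, against 6.21% and 6.47% of all genes. The groups did not overlap for 4 members with UNC0638 lower and for 1, Vhl, with UNC0638 higher, against 7.4% and 9.59% of all genes. The median log2 difference of the 10 was 0.0068, beside 0.012 for all genes. The transcripts of the HIF subunits, Egln2, Vhl and Hif1an did not pass the test.

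Promoter sequences of 9 of the 10 genes were at hand from RefSeq (GRCm38.p6). HIF binds DNA at a short core that reads ACGTG or GCGTG, and the 250 bases before the annotated start were searched for both on either strand. They are shown for the 4 genes with the lowest values after UNC0638 relative to DMSO, each written 5′ to 3′ on the gene's strand, with the matches in capitals (a match on the opposite strand reads CACGT or CACGC).
Egln1, chr8:124949255-124949504, minus strand: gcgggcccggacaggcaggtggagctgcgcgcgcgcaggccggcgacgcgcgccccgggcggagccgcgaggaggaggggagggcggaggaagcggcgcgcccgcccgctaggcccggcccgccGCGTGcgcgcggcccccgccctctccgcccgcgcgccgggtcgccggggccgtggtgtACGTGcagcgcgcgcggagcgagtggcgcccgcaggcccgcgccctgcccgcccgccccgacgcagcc
Egln3, chr12:54203875-54204124, minus strand: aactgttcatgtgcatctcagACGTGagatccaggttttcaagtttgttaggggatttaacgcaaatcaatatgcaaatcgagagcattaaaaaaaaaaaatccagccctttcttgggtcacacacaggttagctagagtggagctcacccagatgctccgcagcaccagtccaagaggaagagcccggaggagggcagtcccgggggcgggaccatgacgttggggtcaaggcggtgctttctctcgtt
Ero1a, chr14:45318573-45318822, minus strand: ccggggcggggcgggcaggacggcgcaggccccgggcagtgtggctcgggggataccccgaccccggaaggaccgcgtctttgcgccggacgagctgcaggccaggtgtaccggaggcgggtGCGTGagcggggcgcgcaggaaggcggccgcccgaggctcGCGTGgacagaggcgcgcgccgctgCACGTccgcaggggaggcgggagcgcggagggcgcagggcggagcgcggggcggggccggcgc
Higd1a, chr9:121857797-121858046, minus strand: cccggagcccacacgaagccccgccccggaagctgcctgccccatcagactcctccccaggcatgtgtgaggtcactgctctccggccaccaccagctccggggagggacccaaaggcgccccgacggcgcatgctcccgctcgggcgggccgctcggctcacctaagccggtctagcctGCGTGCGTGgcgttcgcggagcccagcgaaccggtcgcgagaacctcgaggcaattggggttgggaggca
The Egln1 window held 2 matches, a GCGTG that began 126 bases and an ACGTG that began 68 bases before the start. In Egln3 the only match, ACGTG, began 229 bases before it. The Ero1a window held 3, with GCGTG at 128 and 88 bases and ACGTG on the opposite strand at 63 bases. Those of Higd1a were 2 copies of GCGTG that share a base, at 70 and 66 bases. Of the other members, Hif1a held 3 matches, of which 2 are the same CACGTG read on both strands, and Arnt 1. The start used for Hif1a is that of the promoter table and lies inside the annotated extent of the gene. Egln2 has 2 annotated starts, with 1 match before one and 4 before the other, and Vhl and Hif1an had 0. Over all 32851 promoter windows, 16.6% held ACGTG, 28.2% GCGTG, 38.6% at least 1 of them and 16.7% at least 2 matches. The windows of Egln1 and Ero1a are rich in G and C (86% and 80.8%), Higd1a had 71.2% and Egln3 50.8%. These matches describe letters only, and binding was not measured.

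Among the 3 prolyl hydroxylases, Egln1 and Egln3 had lower intensities on all UNC0638 arrays and Egln2 did not. Egln1 encodes the main HIF prolyl hydroxylase under normal oxygen. Its intensity was 772, 723 and 722 with DMSO and 512, 507 and 527 with UNC0638. The groups were far apart and each was tight, with means of 739 ± 28.6 and 516 ± 10.4 (SD, n = 3 each). On the scale of log2(intensity + 16) Egln1 fell by 0.51 (SE 0.074, limma adjusted p = 0.0285 over all genes), which is 1.42-fold lower with a 95% interval of 1.26- to 1.60-fold. Leaving out any 1 of the 6 arrays kept the difference between -0.52 and -0.47, and the adjusted p was then 0.0756 to 0.117, so the call was lost each time.

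Egln3 encodes the family member best known for strong induction by HIF. Its intensity was 1336, 1209 and 1283 with DMSO and 922, 917 and 1062 with UNC0638. All UNC0638 arrays lay below all DMSO arrays, with UNC0638 3 the highest of its group. The means were 1276 ± 63.7 and 967 ± 82.1 (log2 difference -0.40, SE 0.089), and the limma adjusted p of 0.103 missed the threshold, with 0.0848 to 0.282 over the alternatives. The 95% interval ran from -0.60 to -0.19.

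Egln2, whose product acts on HIF and on other proteins, was at 284, 288 and 227 with DMSO and at 259.6, 299 and 249 with UNC0638. The groups overlapped, at 267 ± 34.3 and 269 ± 26.3. Its log2 difference was 0.016 (95% interval -0.24 to 0.28, limma adjusted p = 0.978), with -0.013 when each array was centred on its median. Changes were then compared within arrays between pairs of related genes, over 4 pairs, with an exact two-sided permutation test that cannot go below 0.1 for 3 arrays against 3. The change of Egln1 lay 0.52 below that of Egln2 on the log2 scale (exact p = 0.1, adjusted p = 0.2), and the within-array values of the groups did not overlap. Egln1 minus Egln3 gave -0.11 (exact p = 0.1, adjusted p = 0.2), also with no overlap of the groups, though by a very small margin. The closest arrays of the groups differed by -0.012, beside -0.24 for Egln1 minus Egln2. With a pseudocount of 64 the exact permutation p of Egln1 minus Egln3 was 0.2. Egln2 minus Egln3 gave 0.41 (exact p = 0.2, adjusted p = 0.27), and there the groups overlapped. No pair could pass the threshold with this test.

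**Figure D1:**
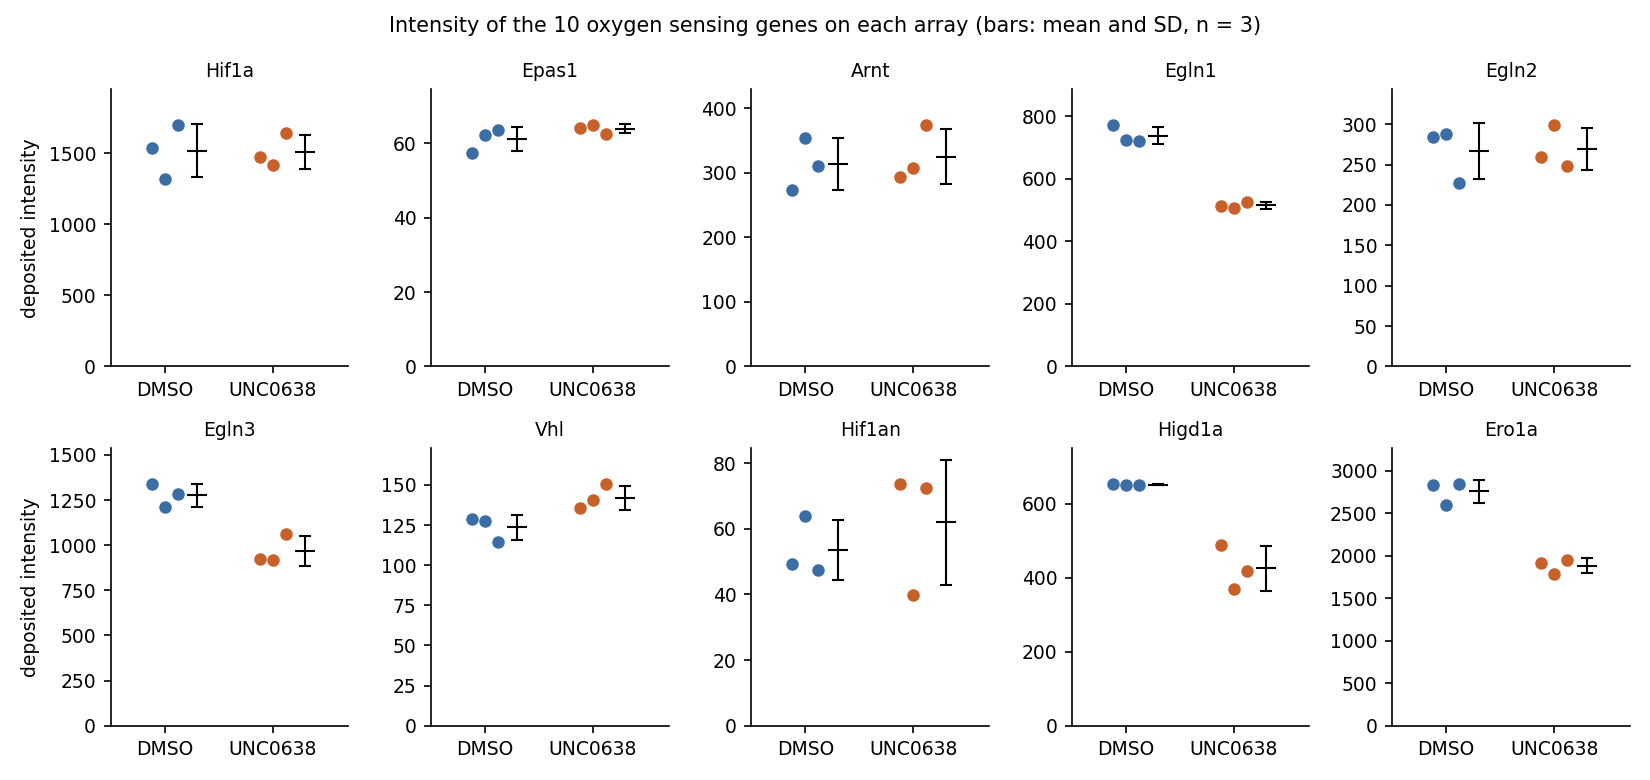
Deposited intensity (linear axis from 0, a separate scale in each panel) of the 10 genes on each of the 3 DMSO arrays (blue) and 3 UNC0638 arrays (orange), with mean and SD beside the points. The UNC0638 points lie below all DMSO points for Egln1, Egln3, Higd1a and Ero1a and above them for Vhl, and overlap for the other 5 genes.

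The HIF subunits showed no difference past the threshold. Hif1a, the alpha subunit found in nearly all cells, was at 1539, 1319.7 and 1697 with DMSO and at 1475, 1414 and 1644 with UNC0638. All 3 UNC0638 values lay inside the DMSO range, and the means were 1518 ± 189 and 1511 ± 119. The log2 difference was -0.0024 (limma adjusted p = 0.996, and 0.023 with quantile normalization), with a 95% interval of -0.25 to 0.25. A change of up to about that size in either direction could therefore be missed.

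Epas1 encodes HIF-2 alpha, the second oxygen-regulated alpha subunit. It was at 57.5, 62.1 and 63.6 with DMSO and at 64.2, 64.9 and 62.6 with UNC0638, close to the array medians of 50.4 to 54.9. The log2 difference was 0.053 (95% interval -0.12 to 0.22, limma adjusted p = 0.855). Hif1a minus Epas1, compared within arrays, gave -0.055 (exact p = 0.8, adjusted p = 0.8). Arnt, the constitutive partner of both, had 274, 355 and 310.4 with DMSO and 294, 307 and 374 with UNC0638. Its groups overlapped, with a log2 difference of 0.051 (95% interval -0.23 to 0.33, limma adjusted p = 0.929).

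Vhl and Hif1an, which act on the HIF alpha proteins after and beside the prolyl hydroxylases, were not called. Vhl had 128, 128 and 114 with DMSO and 135, 140.3 and 150.3 with UNC0638. Every UNC0638 array was above every DMSO array, though by a small margin. The log2 difference of 0.18 (SE 0.082) had a 95% interval of -0.0089 to 0.37 and a limma adjusted p of 0.424, with 0.306 to 0.65 over the alternatives. Hif1an was at 49.2, 63.9 and 47.4 with DMSO and at 73.5, 39.9 and 72.5 with UNC0638. UNC0638 2 was the lowest of the 6 arrays and the other UNC0638 arrays were the highest. Its log2 difference was 0.14 with the widest interval of the 10 genes, -0.28 to 0.56 (limma adjusted p = 0.836), and was 0.36 without UNC0638 2, 0.025 without UNC0638 1 and 0.033 without UNC0638 3. Without DMSO 1, 2 or 3 it was 0.098, 0.25 and 0.079. The precision for Hif1an is thus too low to tell a moderate rise from no change.

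**Figure D2:**
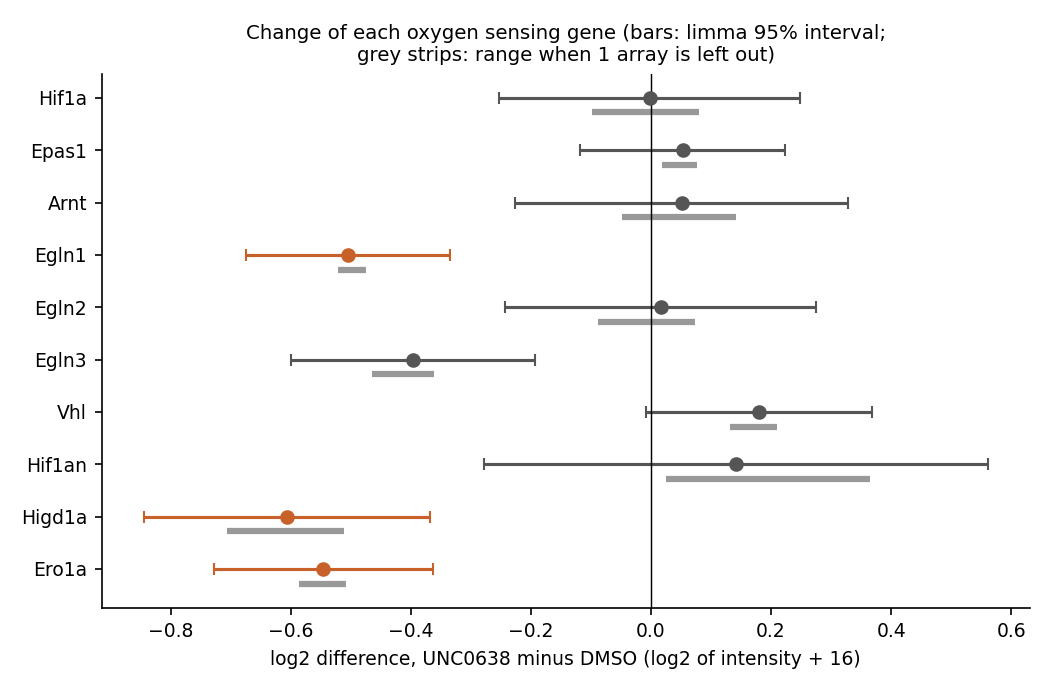
Log2 difference of each of the 10 genes, UNC0638 minus DMSO, as points with 95% intervals from limma, and as grey strips the range when 1 array is left out. The 3 genes past the threshold, in orange, lie between -0.61 and -0.51. The interval of Egln3 also stays below 0, and the strips of Hif1a, Arnt and Egln2 cross 0.

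Ero1a encodes an oxidase of the endoplasmic reticulum that passes electrons from protein disulfide isomerase to oxygen, and it is induced by HIF. Its intensity was 2827, 2602 and 2839 with DMSO and 1916, 1784 and 1948 with UNC0638. The lowest DMSO array was well above the highest UNC0638 array. The means of 2756 ± 133 and 1883 ± 86.8 (SD, n = 3 each) gave a fall of 0.55 on the log2 scale (SE 0.080, limma adjusted p = 0.0285), or 1.46-fold with a 95% interval of 1.29- to 1.66-fold. With 1 array left out the difference was -0.59 to -0.51 and the adjusted p 0.0649 to 0.117, above the threshold each time. Egln1 and Ero1a each kept their call in 8 of 17 alternatives.

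The companion genes of oxidative folding showed no calls. Of 21 measured genes, 0 passed over all genes by limma. At an unadjusted p under 0.05, 3 were lower and 1 higher, against 6.21% and 6.47% of all genes. The median was -0.13 and 16 lay below 0, beside 46.1% of all genes. Ero1b, the paralogue of Ero1a, went from 223 ± 27.9 to 286 ± 18.5, a log2 difference of 0.34 in the opposite direction to Ero1a (limma adjusted p = 0.207). P4hb, the disulfide isomerase that Ero1a oxidises, was at 3290.0 ± 119 and 2947 ± 91.6 (log2 difference -0.16, adjusted p = 0.45). The chaperone Hspa5 was at 4331 ± 70.1 and 4345 ± 107. Prdx4, a peroxidase that uses the peroxide made in this pathway, had the largest absolute difference, -0.46, with an adjusted p of 0.298.

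Higd1a encodes a small inner mitochondrial membrane protein of the HIG1 family, linked to cytochrome oxidase and induced by hypoxia. It is the 1 member with 2 probe sets, and they differed. The brighter, probe set 10492860, was at 651.7, 650.9 and 650.7 with DMSO and at 487, 368 and 419 with UNC0638. The DMSO arrays were almost identical and all UNC0638 arrays were lower, with means of 651 ± 0.568 and 425 ± 59.7 (log2 difference -0.61, SE 0.10, limma adjusted p = 0.0488, 1.52-fold lower with a 95% interval of 1.29- to 1.80-fold). The call was lost in 15 of 17 alternatives, in each of the 6 with 1 array left out among them (adjusted p 0.0682 to 0.164).

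The other probe set, 10597871, was at 172, 303 and 178 with DMSO and at 156, 183 and 272 with UNC0638. Its groups overlapped, each with 1 array far above the other 2, at means of 217 ± 74.0 and 204 ± 60.5. The log2 difference was -0.077 (SE 0.24), with a 95% interval of -0.64 to 0.48 and a limma adjusted p of 0.946 when every single-gene probe set was tested. That interval holds the value of the first probe set too. With the mean of both, Higd1a had a difference of -0.34 (adjusted p = 0.323). The gene lies on chromosome 9 in RefSeq, and so do all of the 20 single-gene probe sets numbered closest to 10597871. For 10492860, which gave the call, all 20 lie on chromosome 3. A most common neighbouring chromosome other than the gene's own was found for 2.83% of 21553 single-gene probe sets. Which of the probe sets reads the Higd1a transcript was not tested, so the fall belongs to probe set 10492860 and not with certainty to the gene.

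**Figure D3:**
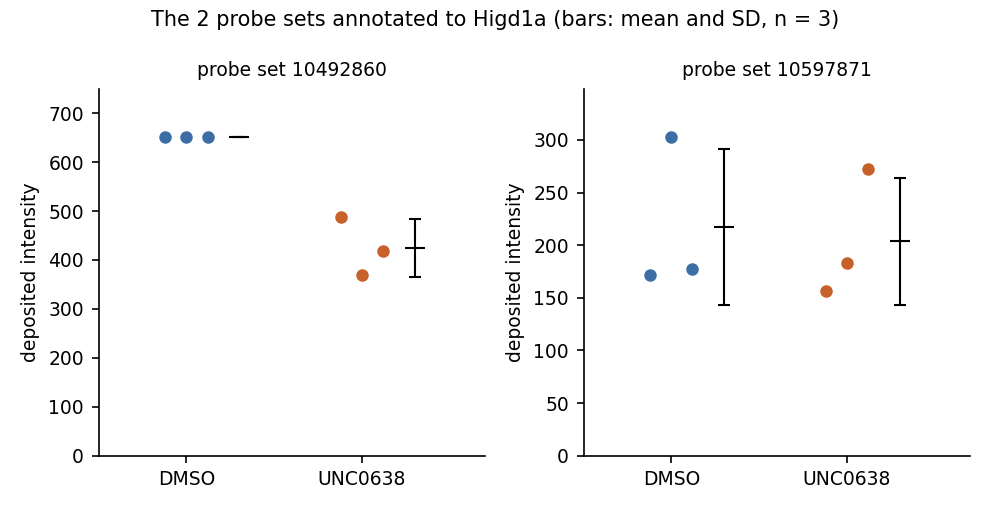
Deposited intensity (linear axes from 0, different scales) of both probe sets annotated to Higd1a on the DMSO (blue) and UNC0638 (orange) arrays, with mean and SD (n = 3). In 10492860 the DMSO points coincide near 651 and the UNC0638 points lie at 368 to 487, whereas in 10597871 the groups overlap.

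Over the processing choices, the adjusted p of Egln1 ran from 0.0242 to 0.117 and that of Ero1a from 0.01 to 0.117. That of Higd1a ran from 0.0299 to 0.323 over the planned choices, the highest of these with its probe sets averaged. Read at its other probe set, a choice made later with the values seen, Higd1a had a limma adjusted p of 0.944 (log2 difference -0.077).

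**Figure D4:**
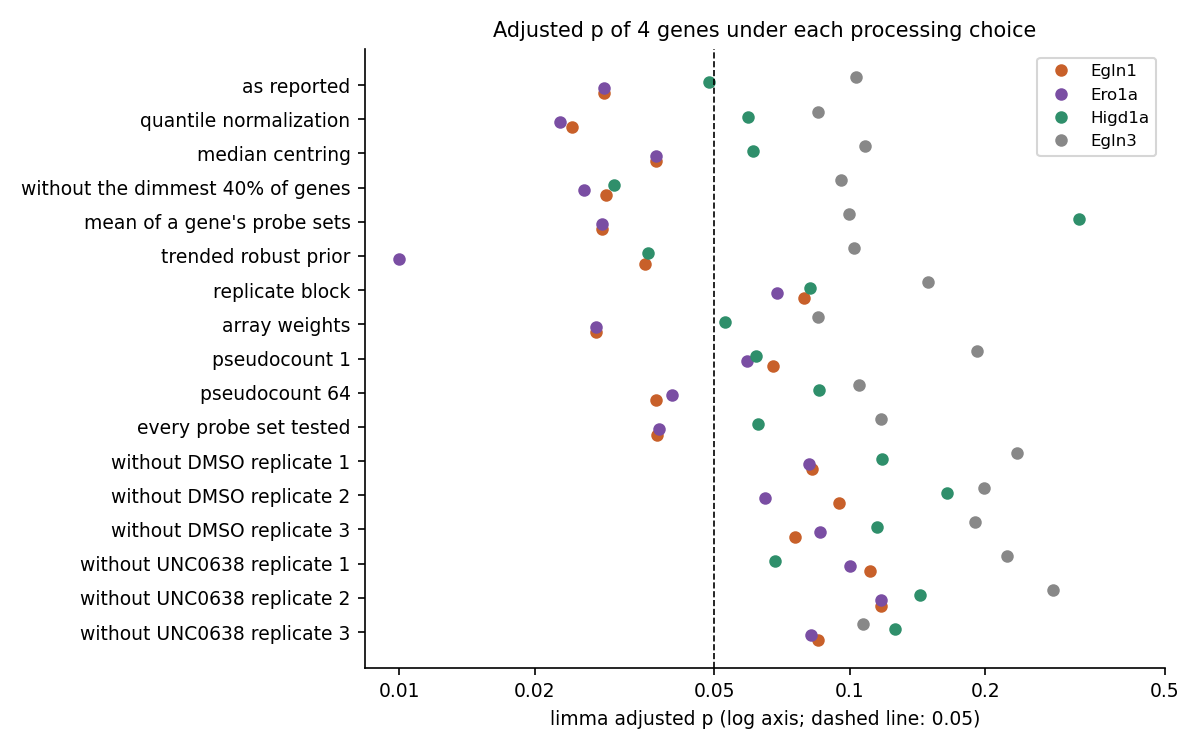
Limma adjusted p (log axis, dashed line at 0.05) of Egln1, Ero1a, Higd1a and Egln3 as reported and under each alternative with that threshold. Egln1 and Ero1a lie left of the line as reported and in 8 alternatives and right of it whenever 1 array is left out, Higd1a is left of it as reported and in 2 alternatives, and Egln3 is right of it throughout.

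The relatives of Higd1a and the subunits and assembly factors of cytochrome oxidase were measured for 20 genes. By limma 0 passed, and the median was -0.056. At an unadjusted p under 0.05, 1 was lower and 0 higher, against 6.21% and 6.47% of all genes. Higd2a, a second member of the HIG1 family, was at 1854 ± 104 and 2080.3 ± 225 (log2 difference 0.16, adjusted p = 0.586). Cox17, a copper chaperone of cytochrome oxidase, had the largest absolute difference at -0.34 (adjusted p = 0.507).

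Among HIF partners, co-activators and degradation factors, 0 of 23 measured genes passed the limma threshold, with a median of -0.035 and 12 below 0. At an unadjusted p under 0.05, 1 was lower and 1 higher, against 6.21% and 6.47% of all genes. Cul2, the scaffold of the ligase that Vhl belongs to, went from 299 ± 5.26 to 256 ± 4.86 (log2 difference -0.21, adjusted p = 0.26). Its partners Elob (-0.23) and Rbx1 (-0.22) had wider spreads and adjusted p of 0.699 and 0.512. The co-activator Ep300 had the largest absolute difference, 0.27 (adjusted p = 0.215). Cited2, which competes with HIF for that co-activator and is itself induced by HIF, was at 1556 ± 111 and 1459 ± 110 (log2 difference -0.092).

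Known HIF targets outside the 10 were lower more often than higher among calls. Of 36 measured targets with other functions 5 fell and 0 rose by limma (13.9%, against the 0.301% and 0.371% given above). Their median was -0.14 and 23 lay below 0. The related lists were chosen with earlier results of these data known, so these shares describe the lists and test nothing. Stc2, a secreted glycoprotein, went from 240.3, 265 and 227 to 115, 127 and 122 (log2 difference -0.92, SE 0.085, adjusted p = 0.00684). Its call was kept in 16 of 17 alternatives, and was lost without 1 of the UNC0638 arrays (replicate 1, adjusted p = 0.0534). Ak4, a mitochondrial adenylate kinase, went from 760.4, 663 and 571 to 337, 243 and 295 (-1.15, adjusted p = 0.0144). With all probe sets of Ak4 averaged, its difference was -0.91 (limma adjusted p = 0.0161). Plod2, a collagen lysyl hydroxylase, had 92.6, 100.1 and 81.8 with DMSO and 33.9, 31.6 and 46.6 with UNC0638 (-1.02, adjusted p = 0.0128, and -0.62 with a pseudocount of 64). In these 3 genes every UNC0638 array was far below every DMSO array. Fam162a, a mitochondrial protein responsive to HIF, fell by 0.97 (adjusted p = 0.027) and the mitophagy receptor Bnip3 by 1.17 (adjusted p = 0.0399). With all probe sets of Bnip3 averaged, the difference was -1.18 (limma adjusted p = 0.04). The comparison with neighbouring probe sets made for Higd1a is not given here for genes of the related lists. Their falls are therefore those of the probe sets read. Plod2 lost its call in 5 of 17 alternatives, Ak4 in 6, Fam162a in 7 and Bnip3 in 11. Without single arrays the count of 5 dropped to between 0 (without UNC0638 1) and 3 (without DMSO 1 or DMSO 3), with 2 without DMSO 2 or UNC0638 3 and 1 without UNC0638 2.

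At an unadjusted p under 0.05, 13 of these 36 targets were lower and 2 higher, against 6.21% and 6.47% of all genes. The groups did not overlap for 11 with UNC0638 lower and for 3 with UNC0638 higher (7.4% and 9.59% of all genes). Targets often used as HIF reporters, named here after their values were seen, did not all share the lower direction. Vegfa, the vascular growth factor, was at 546 ± 42.6 and 542 ± 21.6 (log2 difference -0.0086), the stress-response gene Ddit4 at 0.073 and the carbonic anhydrase Car9 at 0.063, with limma adjusted p of 0.986, 0.866 and 0.929. Ankrd37, an ankyrin-repeat target, had a difference of -0.50 (adjusted p = 0.0923). The haem oxygenase Hmox1, which other stress factors also induce, was at 0.43 (724 ± 13.6 to 985 ± 57.3, adjusted p = 0.0568), the largest positive difference of the list. The transcriptional repressor Bhlhe40 was at 0.28 (adjusted p = 0.31).

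Of 18 measured targets in glucose uptake and glycolysis, 1 fell and 0 rose by limma (0.301% and 0.371% of all genes). Of the 18, 16 lay below 0, as did 46.1% of all genes, and the median was -0.26. The 1 was Pfkl, liver-type phosphofructokinase, from 254, 218 and 225 to 159, 145 and 158 (log2 difference -0.55, adjusted p = 0.038), a call lost in 12 of 17 alternatives, in each of the 6 with 1 array left out among them. At an unadjusted p under 0.05, 10 were lower and 0 higher, against 6.21% and 6.47% of all genes. This list too was chosen with earlier results of these data known. Pdk1, the kinase that restrains pyruvate entry into mitochondria, had the largest absolute difference, -0.81, with an adjusted p of 0.12. The glucose transporter Slc2a1 was at -0.32 (adjusted p = 0.193) and the lactate exporter Slc16a3 at -0.47 (adjusted p = 0.2).

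**Figure D5:**
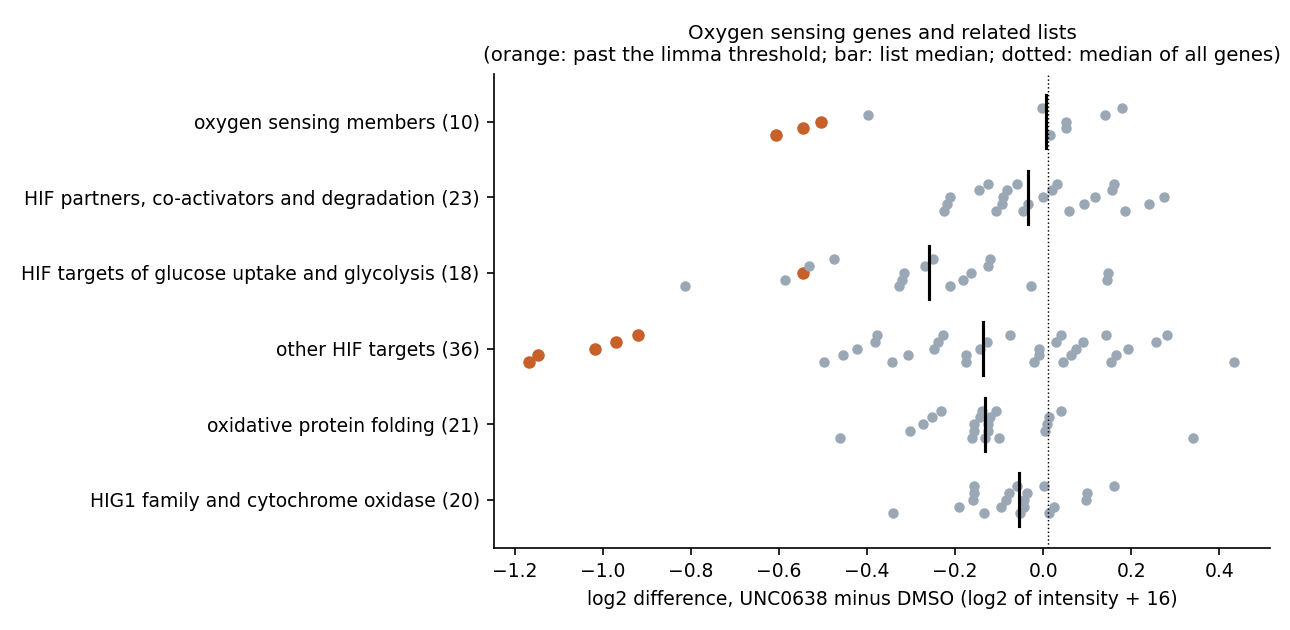
Log2 difference (UNC0638 minus DMSO) of every measured gene in the 10-gene set and in 5 related lists, with the number measured in brackets, orange for genes past the limma threshold, a bar at each list's median and a dotted line at the median of all genes, 0.012. Orange points are found among the 10 genes (3), the glycolytic targets (1) and the other targets (5), all below 0.

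The 5 genes most like Egln1 across the 6 arrays, by Pearson correlation of log2 values, were Dxo, Cct4, Shmt1, Tubb6 and Actl6a, with r of 0.990 to 0.992. They act in RNA decapping, protein folding, one-carbon metabolism, the cytoskeleton and chromatin remodelling. Their log2 differences ran from -0.57 for Tubb6 (limma adjusted p = 0.0285) to -0.18 for Dxo (0.334), and Tubb6 was the 1 that passed. The 6 points fall into 2 groups of arrays, so r here largely restates the group difference and is given as a description.

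Of 11 measured stem and progenitor markers 0 passed the limma threshold. At an unadjusted p under 0.05, 0 were lower and 3 higher (Cd34, Cd27 and Hlf), against 6.21% and 6.47% of all genes. Of the 11, 1 lay below 0, as did 46.1% of all genes. Kit (351 and 364 in DMSO and UNC0638), Cd34 (1615 and 1957) and Flt3 (211 and 222) were clearly above the lower quartiles of the arrays, and Slamf1 was below them on 6 of 6. Among markers of mature myeloid cells, set beside 0.371% of all genes called higher, 3 of 11 for macrophages rose, Itgax, Mpeg1 and Gpnmb. The summed intensity of all 11 macrophage markers was 6326 to 7793 with DMSO and 9775 to 10375 with UNC0638. Of 10 mature neutrophil markers 2 rose, Cxcr2 and Ltf. All 10 summed to 14708 to 15441 with DMSO and 16506 to 19659.6 with UNC0638. In both lists 0 markers were below the lower quartile on all arrays. Their part in the differences of Egln1, Ero1a and Higd1a was not tested, and in these bulk samples a different mix of cells and a different amount of RNA per cell cannot be told apart.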

How the data were processed

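Per the labels' protocols, RNA was extracted with Trizol and labelled as biotinylated cRNA. The authors deposited 1 processed intensity per probe set and array (34760 probe sets, 6 arrays). How they were summarised and normalized, and on which build, is not given in the sources used here; values of 2.738 to 19527 place them on a linear scale. Prior processing can shrink differences.

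Of these, 21640 probe sets had 1 gene symbol, 1321 several and 11799 none in the platform annotation; only the first kind was used, with the highest-mean probe set of each gene. UNC0638 was compared with DMSO on log2(intensity + 16), which understates changes of dim genes, in limma 3.58.1 (R 4.3.3; lmFit, eBayes, group alone), with Benjamini-Hochberg adjustment over 19937 genes and a threshold of 0.05. The number of arrays limits the precision.

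The 10 genes and the 5 related lists (129 entries, 118 measured) were chosen with earlier results of these data known. Besides the 10, the genes named are those past the threshold in each list or the one with the largest difference, and the 5 most like Egln1; others were named after their values were seen. Of 10 marker lists, those for mast (2 of 8 measured genes rose), erythroid (1 of 6), megakaryocyte (0 of 6), B (0 of 7), T and NK (1 of 7), stromal and endothelial cells (0 of 10) and myeloid progenitors (0 of 10) had 0 falls. Alternatives were other normalizations, filters, probe set rules, priors, pseudocounts and thresholds, array weights, a replicate block and leaving out each array. Reading Higd1a at its other probe set was chosen later, with the values seen. Figures used matplotlib 3.10.9 (Python 3.11.15).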

Additional observations from a re-analysis of the deposited data

How the results depend on the processing

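Of 10 oxygen sensing genes 3 passed by limma, and 2 or 3 did under quantile normalization, median centring, the filter on the dimmest 40% of genes, averaged probe sets, the trended robust prior, array weights, a pseudocount of 64, testing every probe set, and Higd1a at its other probe set. With the replicate block, a pseudocount of 1, a threshold of 0.01 or any 1 array left out (0 to 0) the count was 0, with 4 members lower at an unadjusted p under 0.05 in each of these. At that unadjusted p, 1 member was higher without UNC0638 2, under quantile normalization and with a pseudocount of 64. Numbers shared between groups did not pair the samples (correlations of deviations -0.0663, 0.111 and 0.0168), and the block gave adjusted p of 0.079 for Egln1, 0.0689 for Ero1a and 0.0814 for Higd1a.

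Over all genes 134 passed, with 73 under the replicate block, 49 with a pseudocount of 64, 18 at 0.01 and 10 to 69 with 1 array left out. The 1 glycolytic target became 0 under median centring, the replicate block, pseudocounts of 1 and 64, the threshold of 0.01 and with 1 array left out (0 to 0), and 2 with the filter on dim genes. The 5 other HIF targets became 1 with a pseudocount of 64, 1 at 0.01 and 0 to 3 with 1 array left out. The cause of these changes in count was not tested. A stricter threshold cannot give more calls, by construction, and a fit without 1 array rests on fewer values.

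Signs turned only for genes near 0: Hif1a (0.023 with quantile normalization, -0.099 to 0.081 with 1 array left out), Arnt (-0.049 to 0.14) and Egln2 (-0.013 under median centring, -0.089 to 0.073), and for Hif1a minus Epas1 (0.0020 with quantile normalization, -0.16 to 0.0040). The differences of Egln1 (-0.53 to -0.47), Ero1a (-0.59 to -0.51) and Egln3 (-0.46 to -0.36) kept their sign in all 17 alternatives, as did the difference of Plod2, which was -0.62 with a pseudocount of 64.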

Other observations

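The agreement of the 3 DMSO arrays for Higd1a probe set 10492860 is itself unusual. They spanned 1.07 intensity units, a coefficient of variation of 0.0872%, the rank of 5 from the smallest among 19937 genes, where the median gene had 10.1%. The UNC0638 arrays of the same probe set spanned 119 units. The limma fit draws such a small spread towards that of other genes, and the reported SE of 0.10 reflects both groups.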
